A study of Saccharomyces cerevisiae with 6 samples.

Results

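The 10 genes described here encode the glucose sensors Snf3 and Rgt2, the hexose transporters Hxt1, Hxt2, Hxt3, Hxt4 and Hxt5 and the glucose kinases Hxk1, Hxk2 and Glk1 of the budding yeast *Saccharomyces cerevisiae*. They were chosen by symbol. A probe set is the group of short oligonucleotides that reads a transcript on the Affymetrix GeneChip Yeast Genome S98 array, and the brightest probe set of each gene, by mean log2 signal over the 6 arrays, stood for that gene. All 10 were measured, among 5656 genes with a probe set of their own. The 3 treated cultures received 70 μM pterostilbene, a stilbene of grapes and blueberries that is the dimethylether of resveratrol, and the 3 control cultures received 0.25% dimethyl sulfoxide (DMSO), the solvent. Every culture was an independent one of strain S288C, a laboratory strain of mating type α with the alleles flo1, flo8-1, gal2, mal and mel beside *SUC2* and *CUP1*. Additions were made at an absorbance of 0.2 and cells were collected at 0.5, in buffered synthetic medium with dextrose, so glucose was the carbon source in both groups. Pterostilbene came from a 0.5 M stock in DMSO, which by dilution carries 0.014% DMSO, and whether solvent was added to match the controls is not given in the sources used here, nor is the glucose left in the medium at harvest. The dose was one that slows growth, so slower growth and the compound itself cannot be told apart.

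In yeast, glucose enters by facilitated diffusion through the Hxt carriers, which differ in affinity, and is trapped inside by phosphorylation to glucose 6-phosphate. Snf3 and Rgt2 resemble the carriers but signal in place of transporting: when glucose binds, the casein kinases Yck1 and Yck2 mark the corepressors Mth1 and Std1 for destruction through the ubiquitin ligase SCF-Grr1, and the repressor Rgt1 then leaves the *HXT* promoters. A separate arm works through the Mig repressors, which shut off genes for other sugars and for high-affinity uptake when glucose is plentiful. The Snf1 kinase opposes this repression, and the phosphatase Glc7 with its subunit Reg1 opposes the kinase.

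The signals are linear brightness values that the array software had scaled, so that every array had a mean of 499.8 once its top and bottom 2% of signals were set aside. Log2 signals correlated at 0.967 to 0.975 among pterostilbene arrays, 0.965 to 0.969 among control arrays and 0.914 to 0.924 between the groups. The median gene had a log2 fold change of 0.22, against -0.13 with quantile normalization, -0.23 with arrays centred on their medians and 0.36 with arrays centred on 5 reference genes. Poly-A control RNAs, bacterial transcripts added to total RNA before labelling, gave 5.11 times the control signal on pterostilbene arrays, and those put in at hybridization 1.06 times. The part of these shifts in the values below was not tested. The 4 α-type genes examined (*MF(ALPHA)1*, *MF(ALPHA)2*, *STE3* and *SAG1*) had a summed signal of 4896 to 5972 on pterostilbene arrays and 20011 to 20956 on control arrays, while the 6 a-type genes (*MFA1*, *MFA2*, *STE2*, *STE6*, *BAR1* and *AGA2*) summed to 741 to 1009 on pterostilbene arrays and 388 to 516 on control arrays. *MF(ALPHA)1* made up most of the α-type sum and had a log2 fold change of -1.30, against -4.73 for *MF(ALPHA)2*, -3.06 for *STE3* and -4.22 for *SAG1*. *MFA1* made up most of the a-type sum, and the a-type genes did not move as a class. *MFA1* (1.11, limma adjusted p = 0.0029), *STE6* (1.38, limma adjusted p = 0.0023) and *BAR1* (1.77, limma adjusted p = 0.021) rose. *MFA2* had 0.70 and was not called (limma adjusted p = 0.11). *STE2* fell (mean signal 18.9 with pterostilbene and 36.1 in controls, log2 fold change -0.95, limma adjusted p = 0.034) and *AGA2* had -0.26.

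*HXT5* rose and *HXT4* and *HXK2* fell, and these calls stood under every scaling tried. In all, 6 of the 10 genes changed, as 54.2% of all genes did: 4 rose (*HXT1*, *HXT5*, *HXK1* and *SNF3*), 2 fell (*HXT4* and *HXK2*) and 4 did not pass the test (*HXT2*, *HXT3*, *GLK1* and *RGT2*), by limma's moderated test with a Benjamini-Hochberg adjusted p under 0.05 over all probe sets. Among all genes 35.8% were called higher and 18.4% lower, so these counts lay near those of the array as a whole. With at least a 2-fold difference, 1 gene (*HXT5*) rose and 1 (*HXT4*) fell, where the shares over all genes were 17.0% and 3.98%. The methods' t-test called 5 of the 10 higher, with *HXT3* and *RGT2* added and *HXK1* lost, and 2 lower. Of all 9275 probe sets that test called 2712 higher and 1211 lower. The median log2 fold change was 0.25 over the 10 genes and 0.22 over all genes. In 9 of the 10 genes the groups did not overlap (68.8% of all genes), with pterostilbene above in 7 (44.2%) and below in 2 (24.5%). The counts moved with scaling, as did those over all genes. Quantile normalization gave 5 members higher and 2 lower, beside 21.6% and 30.4% of all genes. Median centring gave 1 higher and 2 lower, beside 19.3% and 39.0%, and reference gene centring gave 8 higher and 2 lower, beside 43.7% and 14.5%. RNA came from whole cultures, in which less transcript per cell and fewer expressing cells cannot be told apart.

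**Figure D1:**
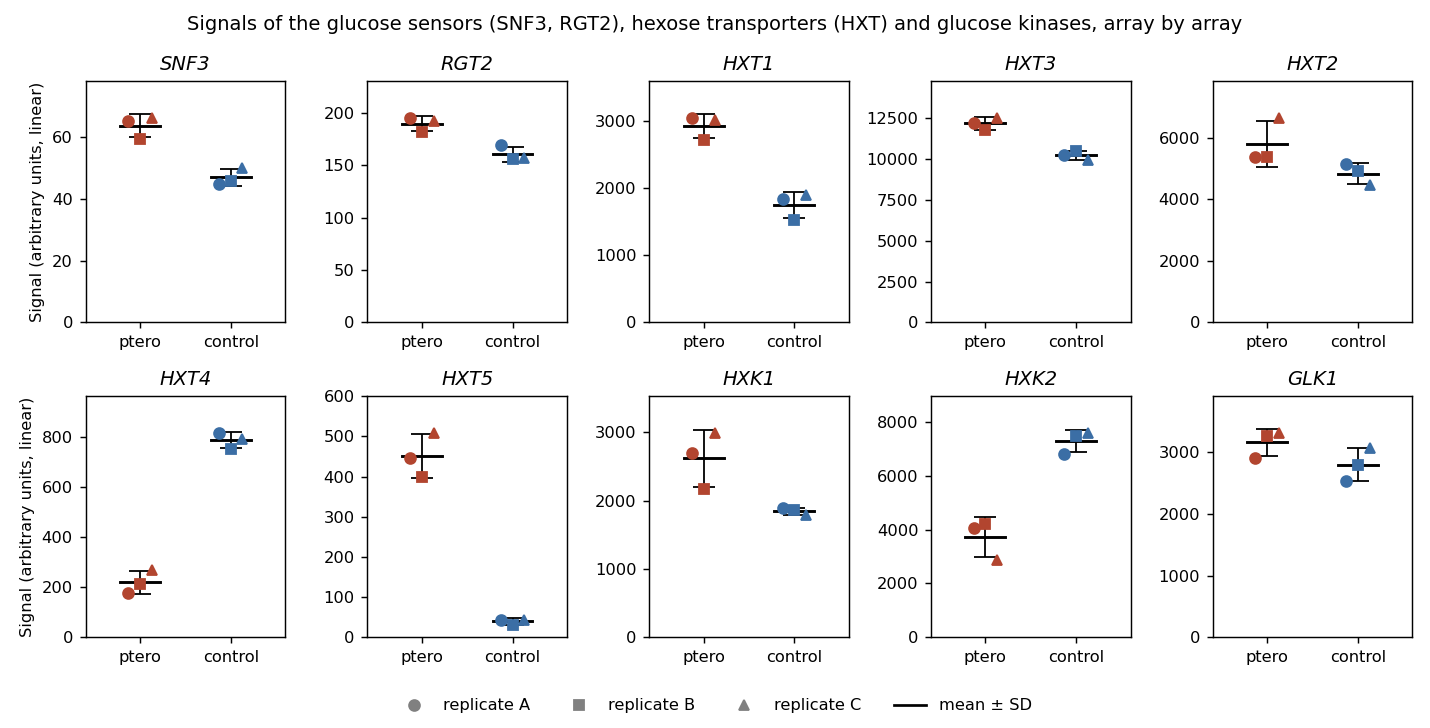
Signal (arbitrary units, linear axis from 0, scaled for each gene) on every array, with pterostilbene on the left and control on the right of each panel and the mean ± SD (n = 3 each) in black. *HXT5* stood between 399 and 509.1 on pterostilbene arrays and between 30.1 and 44.1 on control arrays, *HXT4* and *HXK2* were lower on every pterostilbene array, and the *GLK1* groups overlapped.

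The sensor genes moved little. *SNF3*, the sensor known for low glucose, had signals of 65.4, 59.5 and 66.3 in pterostilbene cultures and of 44.8, 45.9 and 50.2 in controls. The groups did not overlap, and the gene rose 1.36-fold, a log2 fold change of 0.44 (SE 0.10, limma adjusted p = 0.016). This call was lost without pterostilbene replicate A, control replicate A or control replicate B (adjusted p = 0.054 to 0.063). It was also lost with the replicate letter as a block (adjusted p = 0.06). The value was -0.19 after quantile normalization (adjusted p = 0.18) and -0.01 after median centring (adjusted p = 0.93). *RGT2*, the sensor known for high glucose, had signals of 195.3, 181.8 and 192.3 with pterostilbene and of 169, 156 and 156.7 in controls. Although each treated signal was above each control signal, its log2 fold change of 0.24 (95% interval 0.01 to 0.47) did not pass the test (limma adjusted p = 0.081), and it lay close to the median gene. Quantile normalization turned it to -0.18 and median centring to -0.21, while it was called higher after reference gene centring (0.37, adjusted p = 0.024) and by the methods' t-test (adjusted p = 0.024).

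The low-affinity carriers, which serve cells in plentiful glucose, had higher deposited signals in every treated culture, and *HXT1* passed the test. *HXT1*, a low-affinity carrier induced by high glucose, gave 3054.4, 2725.3 and 3026.9 with pterostilbene, against 1842.3, 1528.6 and 1896 in controls. All 3 treated cultures were higher, and the gene rose 1.68-fold (95% interval 1.35 to 2.08), a log2 fold change of 0.75 (SE 0.13, limma adjusted p = 0.0053). Of 15 alternatives, median centring alone ended this call, at 0.29 (adjusted p = 0.092). *HXT3*, the other main low-affinity carrier, gave 12228.2, 11782.7 and 12519.3 with pterostilbene, against 10220.7, 10520.4 and 9963.3 in controls. Its groups did not overlap either, but the log2 fold change was small, at 0.25 (95% interval 0.03 to 0.47, limma adjusted p = 0.063), and its direction depended on scaling, with 0.54 after quantile normalization (adjusted p = 0.0051), a call by the methods' t-test (adjusted p = 0.0092) and -0.20 after median centring (adjusted p = 0.10).

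Of the carriers of higher affinity, *HXT4* fell and *HXT2* did not pass the test. *HXT4*, a carrier expressed at low glucose, had signals of 178.2, 213.3 and 270.1 in pterostilbene cultures, against 819.1, 754.4 and 792.2 in controls. Every treated culture lay far below every control, and the signal was 3.63-fold lower (95% interval 2.70 to 4.86), a log2 fold change of -1.86 (SE 0.17, limma adjusted p = 0.00075), the 37th lowest of 5656 genes. The call held in all 15 alternatives, with values of -2.31 to -1.72. *HXT2*, a high-affinity carrier also known to be used in low glucose, gave 5365.5, 5389.2 and 6649 with pterostilbene, against 5133, 4905.4 and 4473.2 in controls. Pterostilbene replicate C was the highest and the other treated cultures lay just above the controls, so the log2 fold change of 0.26 (95% interval -0.06 to 0.58) did not pass the test (limma adjusted p = 0.16). It passed after quantile normalization (0.51, adjusted p = 0.027) and turned to -0.20 after median centring (adjusted p = 0.20).

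*HXT5* made the largest change of the group. It encodes a carrier of moderate affinity that is known from slowly growing, starved and stressed cells and is little expressed in rapid growth on glucose. Its signals were 446.1, 399 and 509.1 with pterostilbene, against 44.1, 30.1 and 43.6 in controls, and the control level stood above the probe sets for mouse sequences, which yeast lacks and which gave 1.3 to 7.0 on control arrays. The mean was 451 ± 55.2 in pterostilbene cultures and 39.3 ± 7.94 in controls (SD, n = 3 each), an 11.6-fold rise (95% interval 8.32 to 16.2) and a log2 fold change of 3.54 (SE 0.19, limma adjusted p = 0.00018). It ranked 82nd from the top of 5656 genes, and no alternative ended the call, with values of 3.06 to 3.67.

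Among the kinases the pattern was unequal. *HXK2* encodes the main glucose-phosphorylating enzyme of cells on glucose, which is also known to act with Mig1 in glucose repression. Its signals were 4067.3, 4221.8 and 2851.3 with pterostilbene, against 6817.3, 7458.4 and 7595.3 in controls, with pterostilbene replicate C the lowest and no overlap. The signal was 1.99-fold lower (95% interval 1.47 to 2.70), a log2 fold change of -0.99 (SE 0.18, limma adjusted p = 0.0067), the 235th lowest of 5656 genes, and the call held in all 15 alternatives (-1.45 to -0.72). *HXK1*, the isoform known to be repressed by glucose, gave 2695.2, 2166.3 and 2993.9 with pterostilbene, against 1889.1, 1858 and 1789.3 in controls. It rose 1.41-fold, with a log2 fold change of 0.49 (95% interval 0.13 to 0.85, limma adjusted p = 0.036). This call was lost without any single array except pterostilbene replicate B (adjusted p = 0.067 to 0.098) and under the methods' t-test (adjusted p = 0.055). It was also lost with the replicate letter as a block (adjusted p = 0.085) and after median centring (0.04, adjusted p = 0.83). *GLK1*, glucokinase, which phosphorylates aldohexoses but not fructose, gave 2911.4, 3261.4 and 3320.6 with pterostilbene, against 2536.4, 2789.7 and 3076.2 in controls. These groups overlapped, and the log2 fold change was 0.18 (95% interval -0.12 to 0.47, limma adjusted p = 0.26), with -0.27 after median centring. A second probe set, which the annotation assigns to *GLK1* and *YCL042W* together, gave 0.44 (adjusted p = 0.098).

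**Figure D2:**
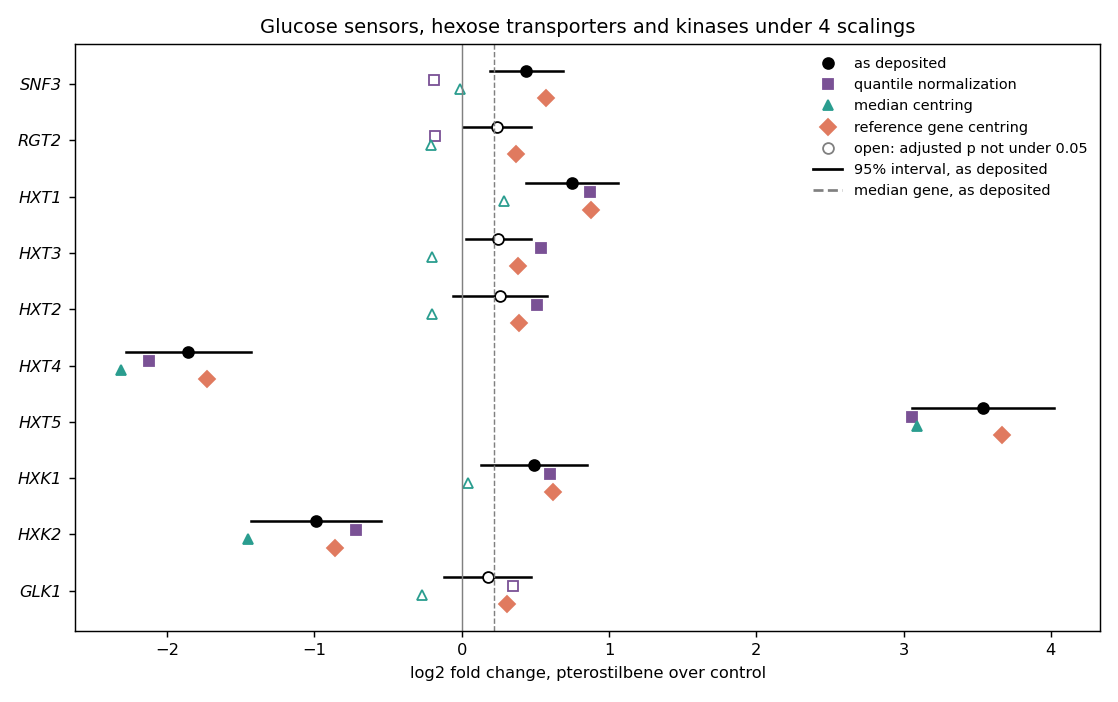
Log2 fold change of pterostilbene over control (x axis) for the 10 genes with the signals as deposited and after 3 other scalings, filled where the limma adjusted p is under 0.05. Bars are 95% intervals for the deposited signals. *HXT5*, *HXT4* and *HXK2* keep their side of 0 with filled symbols throughout, while *SNF3*, *RGT2*, *HXT3*, *HXT2* and *GLK1* have symbols on both sides of 0.

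Whether related genes changed unequally was asked with the difference in log2 signal between 2 genes on the same array, which a common scaling of an array cannot move. A total of 6 pairs were compared with an exact two-sided permutation test, whose smallest possible p with 3 arrays against 3 is 0.10. Each pair reached that value (adjusted p = 0.10 over the 6 pairs) and so none could pass 0.05. Each shift is the difference between the log2 fold changes of the 2 genes, so it is no separate evidence of change. The pairs were chosen with earlier results known, and the share of all gene pairs that separate this way was not tested. For *HXK1* minus *HXK2* the difference was -0.59, -0.96 and 0.07 on pterostilbene arrays, against -1.85, -2.01 and -2.09 on control arrays. The balance of these kinases moved by 1.49 on the log2 scale, a 2.80-fold change toward *HXK1*, with the widest spread among the treated arrays. *GLK1* minus *HXK2* moved by 1.17, the means being -0.21 ± 0.38 on pterostilbene arrays and -1.38 ± 0.07 on control arrays (SD, n = 3 each).

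Among the carriers, *HXT2* minus *HXT4* was 4.91, 4.66 and 4.62 on pterostilbene arrays, against 2.65, 2.70 and 2.50 on control arrays, a shift of 2.12. *HXT5* minus *HXT1* was -2.78, -2.77 and -2.57 on pterostilbene arrays, against -5.38, -5.67 and -5.44 on control arrays, a shift of 2.79. Both shifts were many times the spread within a group. The low-affinity pair *HXT1* minus *HXT3* moved by 0.50, and the sensor pair *SNF3* minus *RGT2* moved by 0.20, which became -0.01 after quantile normalization.

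**Figure D3:**
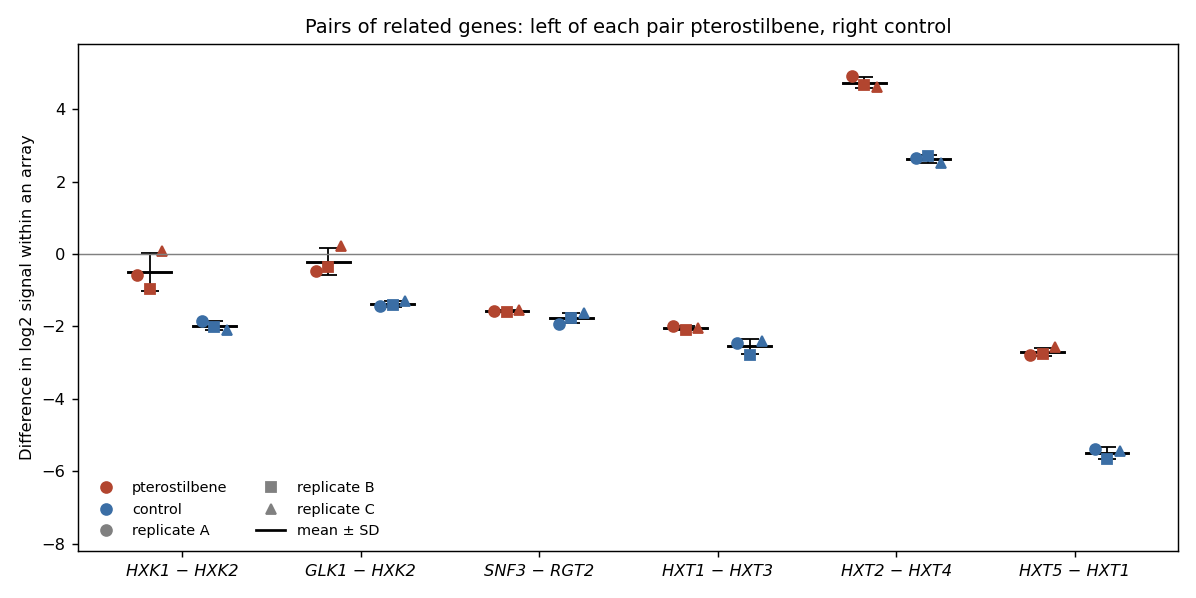
Difference in log2 signal between 2 genes on the same array (y axis) for 6 pairs, with pterostilbene left of control and the mean ± SD (n = 3 each) in black. Only the step between the groups can be read, since probe sets differ in brightness, and it is 2.79 for *HXT5* minus *HXT1*, 2.12 for *HXT2* minus *HXT4* and 0.20 for *SNF3* minus *RGT2*.

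Several of the carrier genes are neighbours on a chromosome. In the gene order of the RefSeq table of assembly R64, *HXT4*, *HXT1* and *HXT5* follow each other on chromosome VIII, with only *AHT1* between *HXT4* and *HXT1*, and their log2 fold changes were -1.86, 0.75 and 3.54. *HXT7*, *HXT6* and *HXT3* follow each other on chromosome IV, with only *YDR344C* between *HXT6* and *HXT3*, and they had -0.72, -1.11 and 0.25.

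Of 13 further genes of the hexose transporter family, 6 had a probe set of their own, of which limma called 0 higher and 2 lower, beside 35.8% and 18.4% of all genes. At an unadjusted p under 0.05, 2 were higher and 2 lower, a threshold whose share over all genes was not counted. The methods' t-test called 0 higher and 2 lower, beside 2712 and 1211 of all 9275 probe sets. Those that fell were *HXT6* and *HXT7*, which encode nearly identical high-affinity carriers, so that their probe sets may read both. *HXT6* gave 1441.1, 1354.1 and 1756.1 with pterostilbene, against 3242.2, 3199.2 and 3320.8 in controls, a log2 fold change of -1.11 (SE 0.13, limma adjusted p = 0.0015). *HXT7* gave 1806.6, 1780.7 and 2146.3 with pterostilbene, against 3468.1, 3270.8 and 2747.5 in controls, a log2 fold change of -0.72 (SE 0.14, limma adjusted p = 0.0086). Both calls held in all 15 alternatives.

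A probe set shared by *HXT9* and *HXT11*, carriers whose genes are known targets of the drug resistance factors Pdr1 and Pdr3, gave 97.6, 94.5 and 120.9 with pterostilbene, against 13.2, 13.2 and 11.5 in controls. It rose by 3.04 on the log2 scale (SE 0.14, limma adjusted p = 0.00013), by 2.40 with the pseudocount and by 2.39 after quantile normalization. Its control signals were dim, and the size of the rise hung on the processing. A second set shared by the same genes gave 42.7, 46.1 and 53.5 with pterostilbene, against 6.9, 4.9 and 14.8 in controls, of which 2 lie within the range of the mouse sequences, so that the size of its rise was not measured. Its fitted log2 value was 2.57 as deposited (limma adjusted p = 0.0046) and 1.71 with the pseudocount. Which of these genes rose cannot be told apart. The set shared by *HXT13*, *HXT15*, *HXT16* and *HXT17*, known as polyol carriers, rose by 1.20 (SE 0.24, limma adjusted p = 0.011), a call that quantile normalization ended (adjusted p = 0.11). *HXT8*, *HXT10*, *HXT14* and *GAL2*, the galactose permease, had control signals of 0.4 to 26.3 and log2 fold changes of 0.66 to 1.25, none of them called. After quantile normalization *HXT8* had -0.05, *HXT10* 0.27, *HXT14* 0.15 and *GAL2* 0.15. Control signals of *HXT10* (9, 2.1 and 8.8) and *HXT14* (9.2, 1.4 and 0.4) lay partly within or below the range of the mouse sequences. The sizes of their changes were therefore not measured.

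Of the 11 genes that carry the signal of the sensors to Rgt1, 5 rose and 2 fell, with 4 short of the threshold, where the shares over all genes were 35.8% and 18.4%. *MTH1*, a corepressor of Rgt1, gave 570.2, 622 and 768.5 with pterostilbene, against 365.4, 290.6 and 318.4 in controls, a 2.01-fold rise (limma adjusted p = 0.0043). Its homolog *STD1* gave 643.9, 698.9 and 741.9 with pterostilbene, against 325.3, 252.9 and 369.1 in controls, a log2 fold change of 1.15 (SE 0.17, limma adjusted p = 0.0032). These 2 were the only genes of the list that changed at least 2-fold. Among all genes, 17.0% were called at least 2-fold higher and 3.98% at least 2-fold lower. The calls of *MTH1* and *STD1* held in all 15 alternatives. The other genes of the list that rose were *GRR1*, the F-box protein of the ligase (0.72), *RGT1* itself (0.39) and *CYC8*, a general corepressor (0.35). Those that fell were *YCK1* (-0.75) and *TUP1*, the partner of Cyc8 (-0.72). The 4 others were *YCK2* (-0.08), *SKP1* (-0.38), *CDC53* (0.03) and *CDC34* (0.14). Median centring called *SKP1* (-0.83, adjusted p = 0.0052), *YCK2* (-0.53, adjusted p = 0.031) and *CDC53* (-0.42, adjusted p = 0.032) lower. *SKP1* was also called lower without the dimmest 25% of probe sets (adjusted p = 0.041) and with trend and robust moderation (adjusted p = 0.027). After median centring *GRR1*, *RGT1* and *CYC8* did not pass (0.27, -0.07 and -0.10), nor did *RGT1* and *CYC8* after quantile normalization. *RGT1* and *CYC8* were also not called without pterostilbene replicate A, B or C or control replicate A or B. The same held with the replicate letter as a block (adjusted p = 0.071 and 0.1). *TUP1* without pterostilbene replicate B had an adjusted p of 0.050.

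In the Mig, Snf1 and Glc7 arm, limma called 6 of 10 genes higher and 0 lower, beside 35.8% and 18.4% of all genes. This list mixes repression genes with genes of the kinase that opposes repression, so the count does not read as more or less repression. The methods' t-test called 5 higher and 0 lower, beside 2712 and 1211 of all 9275 probe sets. At an unadjusted p under 0.05, 0 were lower. *MIG2*, a zinc finger repressor whose own gene is under Rgt1 control, gave 1480.5, 1588.7 and 1786.3 with pterostilbene, against 227, 182.5 and 179.9 in controls. Its rise of 8.26-fold, a log2 fold change of 3.05 (SE 0.14, limma adjusted p = 0.00013), was far outside the spread of either group. *MIG3* gave 172.2, 165.3 and 197 with pterostilbene, against 60.7, 69.2 and 73.8 in controls, a log2 fold change of 1.39 (SE 0.13, limma adjusted p = 0.00073). *MIG1* gave 183.2, 204.8 and 195.7 with pterostilbene, against 103.1, 99 and 85.9 in controls, a log2 fold change of 1.02 (SE 0.11, limma adjusted p = 0.0014). All 3 *MIG* genes rose in all 15 alternatives. *SIP1* (0.40) and *SIP2* (0.48), which encode subunits of the Snf1 kinase, and *REG1* (0.46) had smaller rises, which were lost after quantile normalization and median centring. These calls were also lost with the replicate letter as a block (adjusted p = 0.052 to 0.11), and that of *SIP1* under the methods' t-test (adjusted p = 0.051). *SIP1* and *SIP2* were each lost without 5 of the 6 arrays in turn (for *SIP1* all but control replicate C, for *SIP2* all but control replicate A). The catalytic and activating subunits of the kinase, *SNF1* (0.26) and *SNF4* (-0.21), did not pass, nor did *GAL83* (-0.30) and *GLC7* (0.14). After quantile normalization *SNF4* (-0.56, adjusted p = 0.031) and *GAL83* (-0.54, adjusted p = 0.026) were called lower. Median centring also called both lower (-0.67, adjusted p = 0.018, and -0.75, adjusted p = 0.0098).

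**Figure D4:**
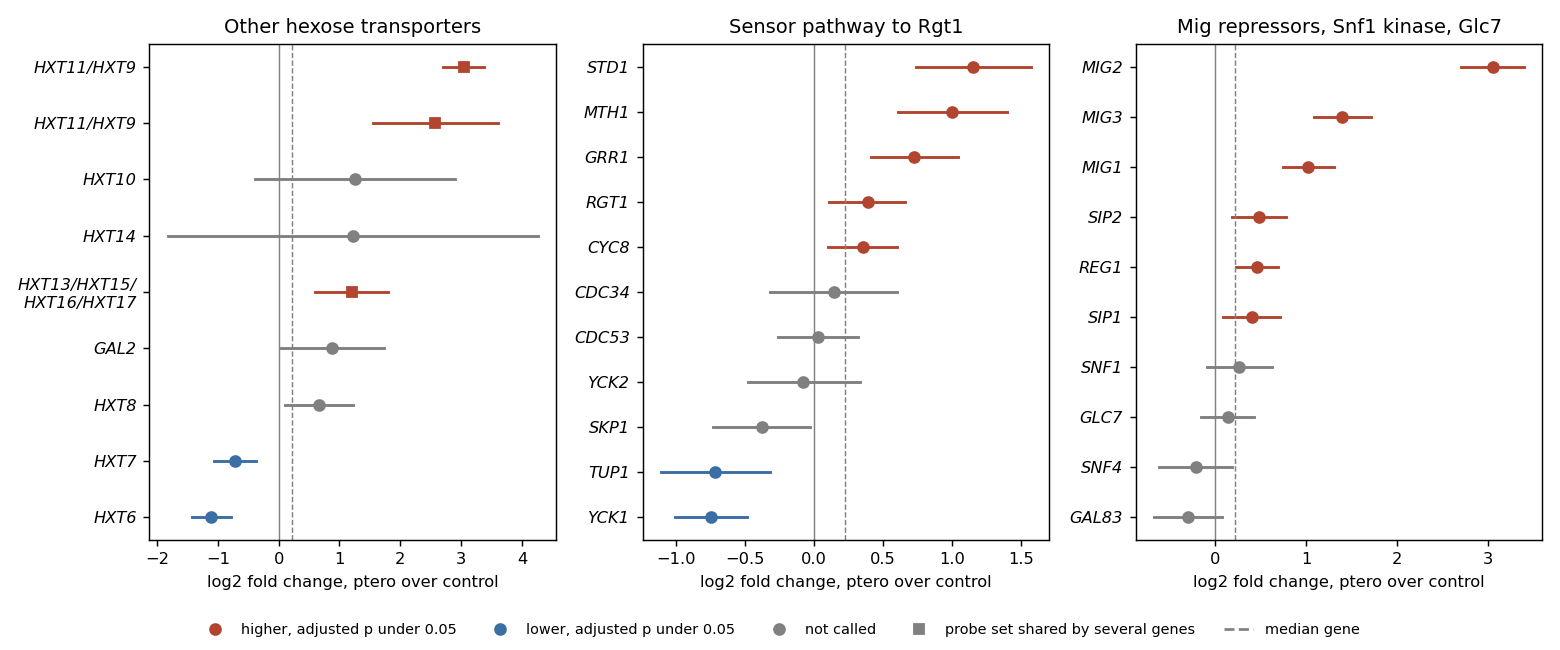
Log2 fold change of pterostilbene over control (x axis) with 95% intervals for the other hexose transporters, the genes between the sensors and Rgt1, and the Mig, Snf1 and Glc7 genes. *MIG2* at 3.05 and the brighter *HXT9* and *HXT11* set at 3.04 lie farthest to the right, the second *HXT9* and *HXT11* set rests on control signals partly at background, and *HXT6* at -1.11 and *YCK1* at -0.75 farthest to the left of their panels.

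The remaining homologs and sensors were few. *EMI2*, a homolog of *GLK1*, gave 1232.2, 1413.9 and 1167.6 with pterostilbene, against 1549.5, 1504.3 and 1560.3 in controls, and its log2 fold change of -0.28 did not pass (95% interval -0.55 to -0.01, limma adjusted p = 0.084). It was called lower after median centring (-0.73, adjusted p = 0.0036) and with trend and robust moderation (adjusted p = 0.044). *GPR1*, the receptor that couples glucose to protein kinase A, gave 583.6, 660.2 and 630 with pterostilbene, against 381.8, 369.8 and 328.5 in controls, a log2 fold change of 0.80 (SE 0.11, limma adjusted p = 0.0027) whose call held in all 15 alternatives. *GPA2*, its G protein, had 0.32 (SE 0.09, limma adjusted p = 0.029). The call was lost after median centring (-0.13) and after quantile normalization (0.21, adjusted p = 0.095). It was also lost with the replicate letter as a block (adjusted p = 0.1) and without pterostilbene replicate A or B or control replicate A or B.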

How the data were processed

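The deposited table holds 9335 linear signal intensity values per array, 1 per probe set, scaled by the authors in Affymetrix software, which the submitters' processing notes name as GCOS 1.1. Summarisation, background correction and scaling target are not given in the sources used here. The 60 control probe sets were left out and 9275 were tested, of which 6504 had a single gene, 328 several and 2443 none in the platform annotation, with symbols updated through the RefSeq gene table of assembly R64. Signals were converted to log2, with 0.1, the lowest signal above 0, in place of 23 zeros. The test was limma's (lmFit and eBayes, version 3.58.1, R 4.3.3), Benjamini-Hochberg adjusted over all probe sets, and intervals are from the same fit without that adjustment. The 3 arrays of a group are independent cultures by the methods, and their number limits the precision. The inoculum is described as an overnight culture of a single colony, so variation between starter cultures may not be covered.

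The genes, lists and pairs were chosen with earlier results of these data known. Genes named beside the 10 were those of each list called with at least a 2-fold difference, up to 4 per direction, then *EMI2*, *YLR446W*, *GPR1*, *GPA2* and the 3 genes most like the member with the largest rise and the one with the deepest fall. The other genes named were chosen after their values were seen. *YLR446W* and *HXT12* are not reported here. The 15 alternatives were quantile normalization, median centring, centring on *ACT1*, *ALG9*, *TAF10*, *TFC1* and *UBC6*, a pseudocount at the 10th percentile of signal (8.7), removal of the dimmest 25% of probe sets, trend and robust moderation, the methods' Student t-test, a block for the replicate letter, averaging over a gene's probe sets, and each of the 6 arrays left out. The limma and t-test fits were run on simulated data with few changed probe sets, as many up as down, and no shift between arrays. That simulation does not cover changes as widespread as those here or the choice of scaling. No sequences were used.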

Additional observations from a re-analysis of the deposited data

Results flagged for a closer look

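The 2 results here lie in control probe sets, outside the comparison of genes. Poly-A control RNAs, over 12 probe sets, were 5.11-fold higher on the pterostilbene arrays than on the control arrays. Ribosomal RNA, over 10 control probe sets, was at 6.81 times the control level with pterostilbene. The part of either in the values of the glucose genes was not tested.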

How the results depend on the processing

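Of the 10 genes, *HXT5*, *HXT4* and *HXK2* kept their direction and call in all 15 alternatives. The other members hung on the scaling, whose effect on all genes is a shift of the median by -0.35 with quantile normalization, -0.45 with median centring and 0.13 with reference gene centring, relative to the deposited signals. After median centring 3 of the 10 genes were called (1 higher), and after reference gene centring 10 (8 higher). *HXT2* and *HXT3* had -0.20 each, *GLK1* -0.27, *RGT2* -0.21 and *SNF3* -0.01 after median centring, and *SNF3* -0.19 and *RGT2* -0.18 after quantile normalization. Leaving out arrays in turn gave 4 to 6 called genes, 2 to 4 of them higher, and 2 higher without pterostilbene replicate A, control replicate A or control replicate B.

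Of the other transporters, 0 to 1 was higher when arrays were left out (*HXT8*, 0.89 without pterostilbene replicate A, and *GAL2* without control replicate C), 1 with reference gene centring and 1 with the pseudocount, and *HXT8* had -0.05 after quantile normalization. Quantile normalization left 3 sensor pathway genes higher, and median centring 2 higher and 5 lower, while 4 to 7 changed, 3 to 5 higher and 1 to 2 lower, when arrays were left out. In the repression arm 3 were higher and 2 lower (*SNF4* and *GAL83*) after quantile normalization, and likewise 3 and 2 after median centring, with 4 to 5 when arrays were left out. Quantile normalization gave -0.27 for *CDC53*, -0.25 for *CDC34*, -0.07 for *SNF1*, 0.00 for *SIP1* and *GLC7* (just below 0) and -0.01 for *SIP2*. Median centring gave -0.42 for *CDC53*, -0.31 for *CDC34*, -0.07 for *RGT1*, -0.10 for *CYC8*, -0.19 for *SNF1*, -0.05 for *SIP1*, -0.32 for *GLC7* and -0.13 for *GPA2*. *YCK2* turned to 0.05 with reference gene centring and without pterostilbene replicate A, *CDC53* to -0.01 without pterostilbene replicate B and -0.03 without control replicate B, and *CDC34* to -0.02 without control replicate C. Over all arrays left out, the ranges were -0.20 to 0.05 for *YCK2*, -0.03 to 0.09 for *CDC53* and -0.02 to 0.25 for *CDC34*. Pair shifts after quantile normalization were -0.01 for *SNF3* minus *RGT2*, 0.33 for *HXT1* minus *HXT3*, 2.62 for *HXT2* minus *HXT4* and 2.19 for *HXT5* minus *HXT1*, the last being 2.53 with the pseudocount. The cause of these moves was not tested.

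With the replicate letter as a block, 4 of the 10 genes were called (2 higher), with 3 higher in the sensor pathway and 3 changed, all higher, in the repression arm. That setting called 2533 of all 9275 probe sets higher and 873 lower. Arrays of the same letter did not deviate together (r = -0.02, -0.04 and -0.01 over probe sets), so the letters were not taken as pairs. Over all 9275 probe sets, 3105 were higher and 1295 lower as deposited, 1799 and 2272 with quantile normalization, 1760 and 2856 with median centring and 3720 and 1014 with reference gene centring.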

Other observations

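The genes whose signals over the 6 arrays were most like those of *HXT5*, by Euclidean distance of log2 signals centred on each gene's mean, were *RPN4*, the transcription factor of proteasome genes (distance 0.45), *SCEI*, a mitochondrial gene for an intron endonuclease (0.46), and *APJ1*, a J-domain cochaperone (0.47). *RPN4* gave 2322.2, 2139.6 and 2607.2 with pterostilbene, against 257.1, 220.2 and 223.9 in controls, a log2 fold change of 3.33 beside 3.54 for *HXT5*. *SCEI* had a fitted 3.84 and *APJ1* 3.30. Control signals of *SCEI* (9.9, 6.5 and 7.8) lay partly within the range of the mouse sequences, so the size of its rise was not measured. Those most like *HXT4* were *FRE2*, a ferric reductase (distance 0.23, log2 fold change -1.80), *FIG1*, a membrane protein of mating (0.27, -1.79), and *POC4*, a proteasome assembly chaperone (0.32, -1.83). *FRE2* gave 63.1, 72.1 and 84.1 with pterostilbene, against 282.5, 246 and 231.4 in controls. *FIG1* was dim, with 10.8, 15.5 and 16.2 on pterostilbene arrays and 48.5, 44.3 and 52.4 on control arrays. With 2 groups of 3 arrays, likeness here mostly reads the size of the group difference.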
